A study of Mus musculus with 28 samples.

Results

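The transcripts of 40 cell cycle genes were followed in dendritic cells sorted from mouse spleen. They were taken by symbol from a fixed list, 20 genes of mitosis and 20 genes of S phase, and all 40 were found in both deposited tables, out of 55487 genes in each. Every one of the 40 passed the filter on low counts in both experiments. The list goes by gene symbol, and it was chosen with earlier results of these data known.

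The study asked what an altered Irf8 enhancer at +32 kb does to the separation of dendritic cell lineages. All cells came from the spleen of C57BL/6 mice and were labelled as cDC1 or cDC2, the type 1 and type 2 conventional dendritic cells, or as hybrid DC. The 8 groups (16 libraries) of experiment 1 were WT cDC1 and cDC2, and all 3 cell types from mice with 1 copy (Irf8 +32H/+, here H/+) or 2 copies (Irf8 +32H/H, here H/H) of the altered enhancer. The 6 groups (12 libraries) of experiment 2 were WT cDC1, cDC1 and hybrid cells of H/H mice, the same pair of cell types from H/H mice lacking Nfil3 (H/H Nfil3-/-), and hybrid cells that carried a Zeb2 enhancer change besides H/H (H/H Zeb2 -165D123). The Nfil3-/- and Zeb2 groups thus also carried 2 copies of the Irf8 allele, and no group had either change on a WT background. Each group had 2 replicates, described as biological. Neither the exact change in each enhancer, the sort gates nor the age of the mice is given in the sources used here, and hybrid cells were not sorted from WT mice in these libraries.

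Libraries held 23393634 to 38174251 counts in experiment 1 and 17540496 to 22708493 in experiment 2. In experiment 1 Irf8, whose enhancer was altered, stood at 2580 and 1960 CPM (counts-per-million of the scaled library total) in WT cDC1, 1221 and 1091 CPM in H/+ cDC1 and 837 and 831 CPM in H/H cDC1. In hybrid cells it did not follow the number of altered copies, at 394 and 405 CPM in H/+ and 544 and 580 CPM in H/H, and in cDC2 it was lowest in WT (48.9 and 47.9 CPM) and highest in H/H (86.2 and 109 CPM). Nfil3 stood at 3.68 and 2.76 CPM in Nfil3-/- cDC1 and at 5.62 and 5.70 CPM in Nfil3-/- hybrid cells, below the 30.9 to 55.3 CPM of the other 8 libraries of experiment 2. Zeb2 stood at 10.3 and 19.6 CPM in Zeb2 -165D123 hybrid cells against 38.6 and 46.9 CPM in H/H hybrid cells, and at 19.5 and 27.8 CPM in Nfil3-/- hybrid cells, so Zeb2 RNA was lower than in H/H hybrid cells and not absent. The 10 cDC1 markers, with Xcr1, Clec9a and Irf8 itself among them, summed to 7802 and 6787 CPM in WT cDC1 of experiment 1. Their sums were 5257 and 4991 CPM in H/+ cDC1 and 4516 and 4194 CPM in H/H cDC1. In WT cDC2 they were 492 and 488 CPM, and in hybrid cells 2111 to 2916 CPM. The 9 cDC2 markers, with Sirpa and Zeb2 itself among them, summed to 22.1 and 27.4 CPM in WT cDC1 of the same experiment. Their sums were 1083 and 1055 CPM in WT cDC2 and 533 to 792 CPM in hybrid cells. No marker of the cDC1 list was at 0 in any group, and of the cDC2 list only Mgl2, in Zeb2 -165D123 hybrid cells.

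A dividing cell copies its DNA in S phase and parts the copies in mitosis, and each step has its own wave of transcripts. Genes of S phase are switched on by E2F factors once the retinoblastoma family lets go of them, and genes of mitosis are held down by the DREAM complex at CHR elements and later driven by B-MYB and FOXM1 together with NF-Y at CCAAT boxes. Conventional dendritic cells arise from dividing precursors, and some still divide after they have reached the spleen. In a bulk library the summed transcripts cannot tell a smaller share of cycling cells from less RNA per cycling cell.

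The promoters of the members that fell most clearly in the Zeb2 -165D123 comparison below are shown to let the 2 kinds of control sequence be seen, 3 genes of mitosis and 3 of S phase with the smallest p-values among those with a promoter window. Each line gives the 150 bases before the transcription start in RefSeq, read 5′ to 3′ on the gene's strand (build GRCm38.p6). Capitals mark E2F motifs (TTCCCGC or TTGGCGC), CHR motifs (TTTGAA) and CCAAT boxes, each on either strand. The E2F motif TTGGCGC after an A overlaps a CCAAT box on the other strand (ATTGG), and such a run counts under both.
Mki67 (chr7:135716380-135716529, - strand): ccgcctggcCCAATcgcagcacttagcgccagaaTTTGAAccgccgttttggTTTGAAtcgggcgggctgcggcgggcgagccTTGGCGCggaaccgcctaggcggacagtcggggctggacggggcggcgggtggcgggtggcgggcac
Top2a (chr11:99024190-99024339, - strand): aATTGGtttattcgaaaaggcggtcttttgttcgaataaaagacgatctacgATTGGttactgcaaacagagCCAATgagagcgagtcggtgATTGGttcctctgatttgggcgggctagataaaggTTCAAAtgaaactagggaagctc
Kif11 (chr19:37376232-37376381, + strand): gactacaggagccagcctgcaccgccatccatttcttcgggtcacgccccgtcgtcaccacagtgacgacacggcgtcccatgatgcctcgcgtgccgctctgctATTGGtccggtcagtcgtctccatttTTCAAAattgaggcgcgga
Rrm2 (chr12:24708104-24708253, + strand): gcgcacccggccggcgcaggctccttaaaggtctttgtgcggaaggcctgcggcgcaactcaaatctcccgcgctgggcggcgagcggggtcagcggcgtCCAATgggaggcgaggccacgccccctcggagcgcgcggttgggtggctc
Uhrf1 (chr17:56303187-56303336, + strand): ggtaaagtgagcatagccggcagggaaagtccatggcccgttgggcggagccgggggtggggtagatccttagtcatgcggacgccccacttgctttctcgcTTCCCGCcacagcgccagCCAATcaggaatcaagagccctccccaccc
Mcm7 (chr5:138171884-138172033, - strand): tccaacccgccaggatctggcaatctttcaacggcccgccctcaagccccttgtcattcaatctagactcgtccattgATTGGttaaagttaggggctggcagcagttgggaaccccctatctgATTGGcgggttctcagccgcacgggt

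Uhrf1 and Mcm7 have a second window each, which is not printed. In the stretches shown the 3 mitosis genes each held a CHR motif and a CCAAT box, and the 3 S phase genes held CCAAT boxes and no CHR motif. An E2F motif lay in the stretches of Mki67 and Uhrf1, and not in those of Top2a, Kif11, Rrm2 or Mcm7. Windows of 300 bases, 250 of them before the start, were given for 33 of the 40 members. A CHR motif lay in the windows of 11 of 16 mitosis genes (68.8%) and of 3 of 17 S phase genes (17.6%), against 17.9% of all 32851 windows of that length. An E2F motif lay in 3 of 16 mitosis genes (18.8%) and 10 of 17 S phase genes (58.8%), against 6.8% of all windows. A CCAAT box was found in 14 of 16 mitosis genes (87.5%) and 11 of 17 S phase genes (64.7%), against 37.4% of all windows. These are matches of letters, and binding was not measured.

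Levels were divided by the length of each gene's annotated exons, merged over its transcripts, which can exceed the length of the RNA present. The order of genes given here depends on these lengths. Per kilobase of merged exons, Pcna, the clamp that holds the polymerase on DNA, had the highest level among S phase genes in 13 of the 14 groups. Rrm2 had it in H/H cDC2 of experiment 1, at 64.2 CPM per kb. Ccnb2, a B-type cyclin, had the highest level per kilobase among mitosis genes in all 14 groups, from 11.4 CPM per kb in Zeb2 -165D123 hybrid cells to 38.6 CPM per kb in Nfil3-/- cDC1. The lowest mitosis gene per kilobase was Cenpf, a long kinetochore protein, in 13 groups and Ccna2 in H/+ cDC2.

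As a summary of each list, the log2 CPM of its 20 genes was averaged in each library. In experiment 1 the 8 group means of the mitosis genes lay between 4.79 and 5.07 and those of the S phase genes between 5.0 and 5.30. The S phase mean was above the mitosis mean in every group of experiment 1. In experiment 2 the mitosis mean was 5.26 ± 0.147 (SD, n = 2) in WT cDC1, 5.17 ± 0.221 in H/H cDC1, 5.29 ± 0.004 in Nfil3-/- cDC1, 4.91 ± 0.308 in H/H hybrid cells and 5.21 ± 0.016 in Nfil3-/- hybrid cells. In Zeb2 -165D123 hybrid cells it was 3.97 ± 0.013, and these 2 libraries stood apart from the other 10. The S phase mean there was 4.38 ± 0.046, against 4.82 ± 0.027 in H/H hybrid cells and 5.06 to 5.32 in the other 4 groups. The difference of S phase mean minus mitosis mean was 0.408 ± 0.059 in Zeb2 -165D123 hybrid cells and between -0.147 and 0.026 in the other 5 groups of experiment 2.

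**Figure D1:**
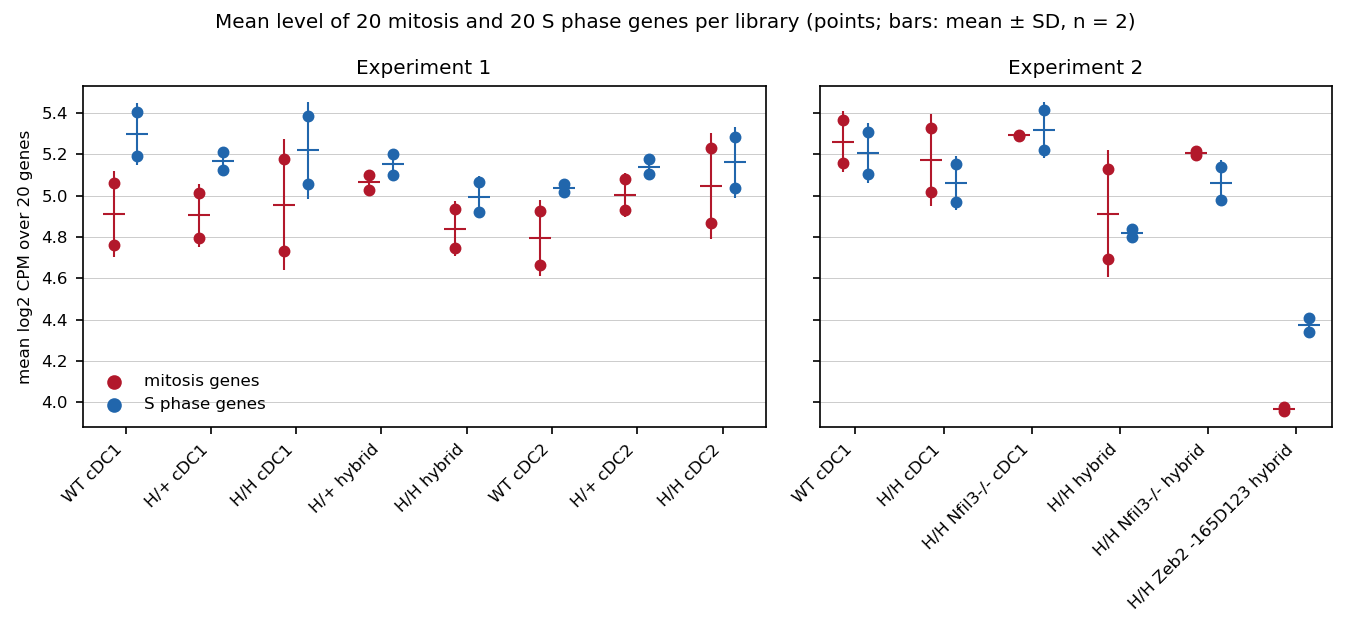
Mean log2 CPM of the 20 mitosis genes (red) and the 20 S phase genes (blue) in each library (points), with group mean ± SD (n = 2), for the 8 groups of experiment 1 and the 6 groups of experiment 2. The vertical axis does not start at 0. The groups of experiment 1 lie close together, while both means are lowest in Zeb2 -165D123 hybrid cells, the mitosis mean at 3.97 and the S phase mean at 4.38.

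Hybrid cells with the altered Zeb2 enhancer had less RNA of the division genes than hybrid cells of H/H mice. Of the 40 genes 25 fell and 0 rose at an adjusted p below 0.05 (edgeR quasi-likelihood test), where 1.79% of the 14504 genes tested fell and 2.23% rose. Of the 20 mitosis genes 18 fell, with a median log2 fold change of -0.96 over all 20, and of the 20 S phase genes 7 fell, with a median of -0.53. The median over all genes tested was -0.0016.

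Mki67 encodes Ki-67, the coat protein of mitotic chromosomes that marks cycling cells (ENSMUSG00000031004, GRCm38 chromosome 7, 135689784 to 135716361, minus strand). It stood at 41.2 and 37.7 CPM in the 2 Zeb2 -165D123 libraries and at 101 and 81.1 CPM in the 2 H/H hybrid libraries. The other 8 libraries of experiment 2 held 71.9 to 103 CPM of Mki67, so both Zeb2 -165D123 libraries lay below all 10 others. Its log2 fold change against H/H hybrid cells was -1.20 ± 0.161 (SE), a 2.30-fold lower level (edgeR adjusted p = 0.000509). Top2a, the topoisomerase that untangles the sister chromatids, stood at 58.6 and 62.2 CPM against 135 and 104 CPM in H/H hybrid cells and 125 to 158 CPM in the other 8 libraries. Its log2 fold change was -0.98 ± 0.140 (edgeR adjusted p = 0.000848).

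Kif11, the motor that pushes the spindle poles apart, stood at 8.97 and 11 CPM in Zeb2 -165D123 hybrid cells and at 28.1 and 21.0 CPM in H/H hybrid cells. Its log2 fold change was -1.29 ± 0.186 (edgeR adjusted p = 0.000898), and every other library of experiment 2 held at least 21.0 CPM. Bub1b and Bub1 code for proteins of the checkpoint that delays the parting of chromosomes until all are attached. Bub1b stood at 21.4 and 18.5 CPM against 50.3 and 36.1 CPM (log2 fold change -1.12 ± 0.167, edgeR adjusted p = 0.0012). Bub1 stood at 7.19 and 6.85 CPM against 18.9 and 13.4 CPM (log2 fold change -1.20 ± 0.195, edgeR adjusted p = 0.0023). The groups did not overlap in either gene, which is no separate support, as both were called on the same libraries. The kinetochore motor Cenpe had the largest change of the 40 genes, with a log2 fold change of -1.37 ± 0.317 (edgeR adjusted p = 0.0415). Cenpe, and the falls named in the next paragraph other than Ccna2, were singled out after their values were seen.

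Ccna2, the cyclin of S phase and early mitosis, stood at 7.99 and 7.49 CPM in Zeb2 -165D123 hybrid cells against 18.0 and 16.1 CPM in H/H hybrid cells. Its log2 fold change was -1.14 ± 0.163 (edgeR adjusted p = 0.00085). Ccna2 overlaps Exosc9 in the annotation, and the strand of the counting is not stated. Cdk1, the kinase that starts mitosis, and its partners Ccnb1 and Ccnb2 fell with log2 fold changes of -0.84, -0.96 and -0.83. The mitotic kinases Aurka, Aurkb and Plk1 fell with log2 fold changes from -0.81 to -0.80. Ube2c, which works with the anaphase-promoting complex in destroying cyclins, fell by 0.96 on the log2 scale. Of the 2 mitosis genes that did not pass, Cdc20, the activator of that complex, had a log2 fold change of -0.66 (edgeR adjusted p = 0.127). The other was Tpx2, a spindle assembly factor, with -0.46 (edgeR adjusted p = 0.227).

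**Figure D2:**
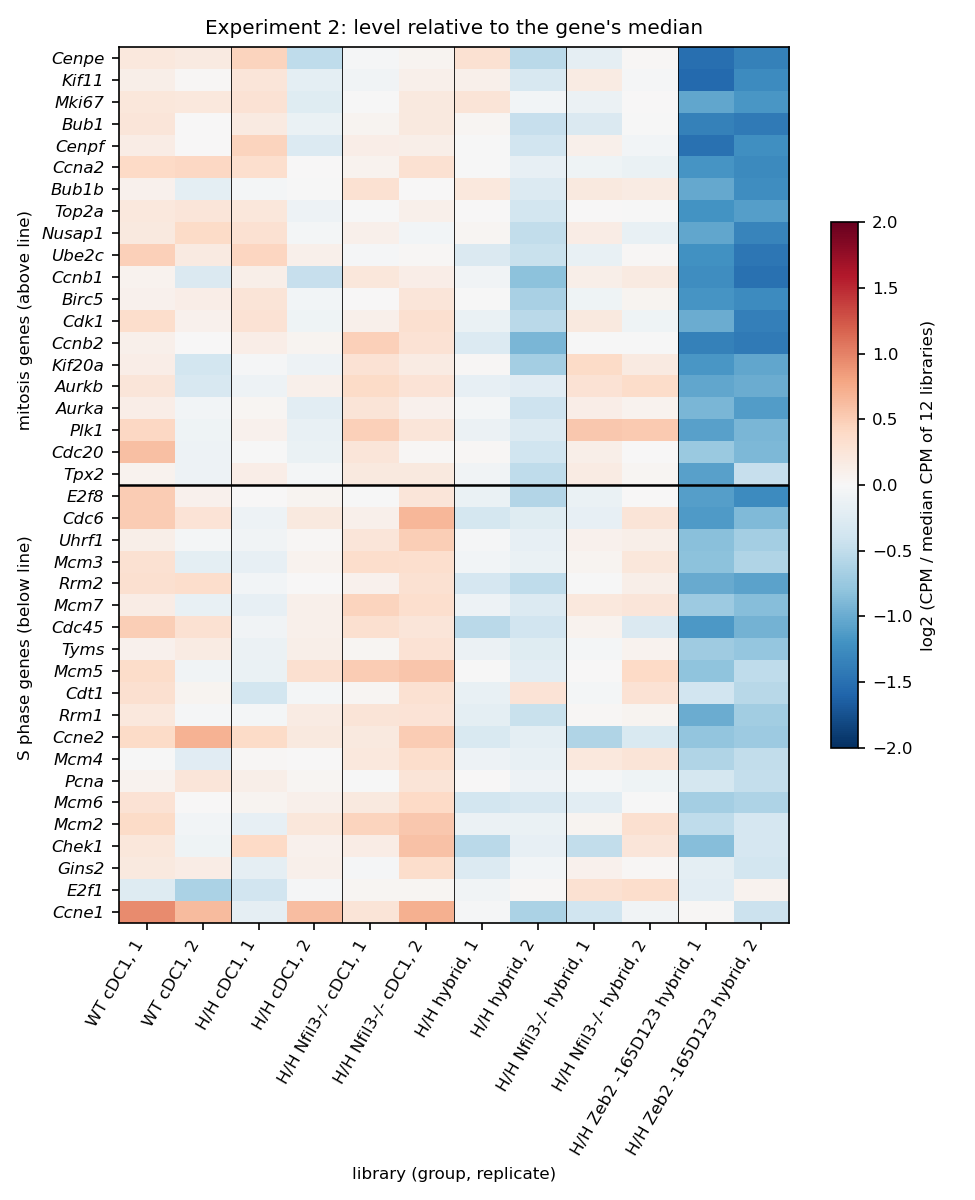
Level of each of the 40 genes (rows) in each of the 12 libraries of experiment 2 (columns), as log2 of CPM over the gene's median CPM of the 12 libraries, from blue (low) to red (high), with mitosis genes above the line and S phase genes below it. The 2 Zeb2 -165D123 columns at the right are below the other 10 libraries in 19 of 20 mitosis genes and 16 of 20 S phase genes.

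The log2 fold changes of the 7 S phase genes that fell ran from -0.84 to -0.52, and those of the 18 mitosis genes from -1.37 to -0.80. Uhrf1, which guides the copying of DNA methylation onto new strands, stood at 36.2 and 40.4 CPM in Zeb2 -165D123 hybrid cells and at 63.6 and 57.8 CPM in H/H hybrid cells. Its log2 fold change was -0.66 ± 0.129 (edgeR adjusted p = 0.00822). Rrm2, the S phase subunit of the enzyme that makes deoxyribonucleotides, stood at 58.4 and 55.8 CPM against 92.4 and 82.0 CPM. Its log2 fold change was -0.61 ± 0.119 (edgeR adjusted p = 0.00822), and both Zeb2 -165D123 libraries lay below every other library of the experiment in both genes. Tyms, which makes thymidylate, stood at 26.7 and 25.5 CPM against 40.4 and 37.1 CPM (log2 fold change -0.57 ± 0.136, edgeR adjusted p = 0.0257). E2f8, a repressor among the E2F factors, fell by 0.84 on the log2 scale (edgeR adjusted p = 0.034).

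The MCM proteins form the helicase that opens the DNA at origins. Of the MCM members Mcm7 fell, from 81.0 and 72.2 CPM to 52.7 and 48.2 CPM (log2 fold change -0.60 ± 0.135, edgeR adjusted p = 0.0179). Mcm7 overlaps Cops6 and Ap4m1 in the annotation. Mcm3 also fell (log2 fold change -0.61 ± 0.152, edgeR adjusted p = 0.0325). Mcm5 (ENSMUSG00000005410, GRCm38 chromosome 8, 75109569 to 75128439, plus strand) stood at 59.1 and 73.0 CPM against 103 and 90.0 CPM, and its log2 fold change of -0.54 ± 0.184 did not pass (edgeR adjusted p = 0.138). Among the S phase genes that did not pass, the largest changes were those of Cdc6, a loader of the helicase (log2 fold change -0.70, edgeR adjusted p = 0.0793), and Cdc45, a subunit of the active helicase (log2 fold change -0.58, edgeR adjusted p = 0.0789). The transcription factor E2f1, at -0.03, and Ccne1, the cyclin that opens S phase, at 0.10, had log2 fold changes near 0, and Ccne1 had the only value of the 40 above 0.

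In the order of group means, Zeb2 -165D123 hybrid cells had the lowest of the 6 groups of experiment 2 in 20 of 20 mitosis genes and 18 of 20 S phase genes. Both of their libraries were below all 10 other libraries in 19 mitosis genes, with Tpx2 as the exception, and in 16 S phase genes, with Ccne1, Chek1, E2f1 and Gins2 as exceptions. Among all genes tested this order was found in 7.46%. The ratio of the highest to the lowest group mean in experiment 2 ran from 1.91 to 3.39 over the mitosis genes (median 2.69) and from 1.37 to 2.81 over the S phase genes (median 2.1). In experiment 1, without that group, it ran from 1.2 to 1.79 (median 1.43) and from 1.18 to 1.77 (median 1.48).

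Wider lists of cell cycle genes outside the 40 were counted in the same comparison. Of 64 further genes of mitosis 43 fell and 0 rose, among them Ncapg, a condensin subunit (log2 fold change -1.39), Melk, a mitotic kinase (-1.35), Spag5, a spindle protein (-1.23), and Kif4, a chromosome motor (-1.19). Of 62 further genes of S phase 17 fell and 0 rose, among them Pole, the catalytic subunit of DNA polymerase epsilon (log2 fold change -1.0), Dnmt1, the maintenance DNA methyltransferase (-0.75), and Lig1, which joins Okazaki fragments (-0.66). Of 31 genes that control entry into the cycle 1 passed, the mitotic transcription factor Foxm1, with a log2 fold change of -0.82 ± 0.187 (edgeR adjusted p = 0.0191). Of 15 inhibitors tested 1 passed, Cdkn3, a phosphatase that is itself made by dividing cells, with -1.07 ± 0.238 (edgeR adjusted p = 0.0178).

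How many of the 40 passed depended on single libraries, and the direction of the medians did not. In the 4 fits that each left out 1 library, the median of the mitosis genes stayed between -1.19 and -0.76. That of the S phase genes stayed between -0.56 and -0.45. Fewer of the 40, and fewer of all genes, passed in each of these fits than with all libraries. The H/H hybrid replicates differed from each other in the mitosis genes, all 20 being lower in replicate 2 (median log2 ratio -0.419), while 8 of 20 S phase genes were higher in it (median -0.058).

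Some markers of other cells moved with this comparison. The 12 monocyte and macrophage markers summed to 1151 and 1300 CPM in Zeb2 -165D123 hybrid cells and to 1044 and 945 CPM in H/H hybrid cells, and none was at 0. Both Zeb2 -165D123 libraries lay above both H/H hybrid libraries in 9 of the 12, below them in Ccr2 and Cd68, and overlapped them in Adgre1. The share of all genes tested with such an order is not given here, so these counts describe the list only. Within that list, as examples singled out after their values were seen, C1qa stood at 39.7 and 42.5 CPM against 10.4 and 8.52 CPM, Vcam1 at 172 and 192 CPM against 67.8 and 47.1 CPM, and Mertk at 10.4 and 6.44 CPM against 2.01 and 2.09 CPM. Ccr2 ran the other way, at 7.82 and 8.39 CPM against 64.3 and 60.6 CPM, and Cd68, the most abundant of the list, stood at 422 and 464 CPM against 526 and 474 CPM. The 9 markers of dendritic cell progenitors summed to 309 and 376 CPM against 296 and 276 CPM, most of it Kit (306 and 373 against 290 and 270 CPM). Both Zeb2 -165D123 libraries lay above both H/H hybrid libraries in Kit and Myb, below them in Cd34, Elane, Prtn3 and Cd93, and overlapped them in 3. Elane, Prtn3 and Ctsg were at 0 in Zeb2 -165D123 hybrid cells. In H/H hybrid cells Ctsg was at 0 too, and Elane and Prtn3 were each at 0.109 and 0.113 CPM. The 10 cDC1 markers summed to 3529 and 2969 CPM against 2540 and 2469 CPM. The 9 cDC2 markers, with Zeb2 itself among them, summed to 579 and 570 CPM against 744 and 774 CPM. The 8 T cell markers summed to 17.7 and 16.7 CPM against 9.12 and 13.5 CPM, most of it Cd5 (12.99 and 12.84 against 5.92 and 9.591 CPM). In Cd3g, Lck and Cd5 both Zeb2 -165D123 libraries lay above both H/H hybrid libraries, and in 5 of the 8 they overlapped. The 9 erythroid markers summed to 199 and 137 CPM against 112 and 30.6 CPM. The part of these cells in the result was not tested. Xist was found in Zeb2 -165D123 replicate 2 and in neither H/H hybrid library, and with a term for libraries that hold Xist 20 of the 40 genes fell and 0 rose, where 3.25% of all genes changed.

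Against hybrid cells that lacked Nfil3, a comparison with the same Zeb2 -165D123 libraries and other controls, 33 of the 40 genes fell and 0 rose, where 5.22% of all genes fell and 5.7% rose. All 20 mitosis genes fell, with a median log2 fold change of -1.25, and 13 of 20 S phase genes fell, with a median of -0.77. Plk1, a kinase that acts from the entry into mitosis to cell division, stood at 11 and 12.5 CPM against 34.1 and 33.9 CPM (log2 fold change -1.53 ± 0.173, edgeR adjusted p = 4.9e-05). Rrm2 stood at 58.4 and 55.8 CPM against 116 and 127 CPM (log2 fold change -1.09 ± 0.119, edgeR adjusted p = 3.99e-05). Mki67 fell by 1.05 and Mcm5 by 0.87 on the log2 scale, the latter with an edgeR adjusted p of 0.00805. Kif11, Ccnb2, Aurkb, Ube2c and Top2a fell with log2 fold changes from -1.45 to -1.15. Mcm7, Rrm1, Uhrf1, Mcm4 and Tyms fell with log2 fold changes from -1.02 to -0.76. The S phase genes that did not pass were Cdt1 (log2 fold change -0.61), Chek1 (-0.49), Pcna, E2f1, Gins2, Ccne1 and Ccne2.

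In the same comparison 53 of the 64 further mitosis genes and 26 of the 62 further S phase genes fell. Among the inhibitors Cdkn2d (log2 fold change -0.91) and Cdkn3 (-1.18) fell, and the growth arrest genes Gadd45b (0.90) and Btg1 (0.64) rose. Foxm1 fell by 0.78 on the log2 scale. With 1 library left out, fewer of the 40, and fewer of all genes, passed than with all libraries. The 8 neutrophil markers summed to 13.9 and 2.86 CPM in Zeb2 -165D123 hybrid cells against 35.4 and 63.0 CPM in Nfil3-/- hybrid cells. The 8 T cell markers summed to 17.7 and 16.7 CPM against 9.56 and 8.93 CPM, most of it Cd5 (12.99 and 12.84 against 7.815 and 7.704 CPM). The part of these cells in the result was not tested.

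**Figure D3:**
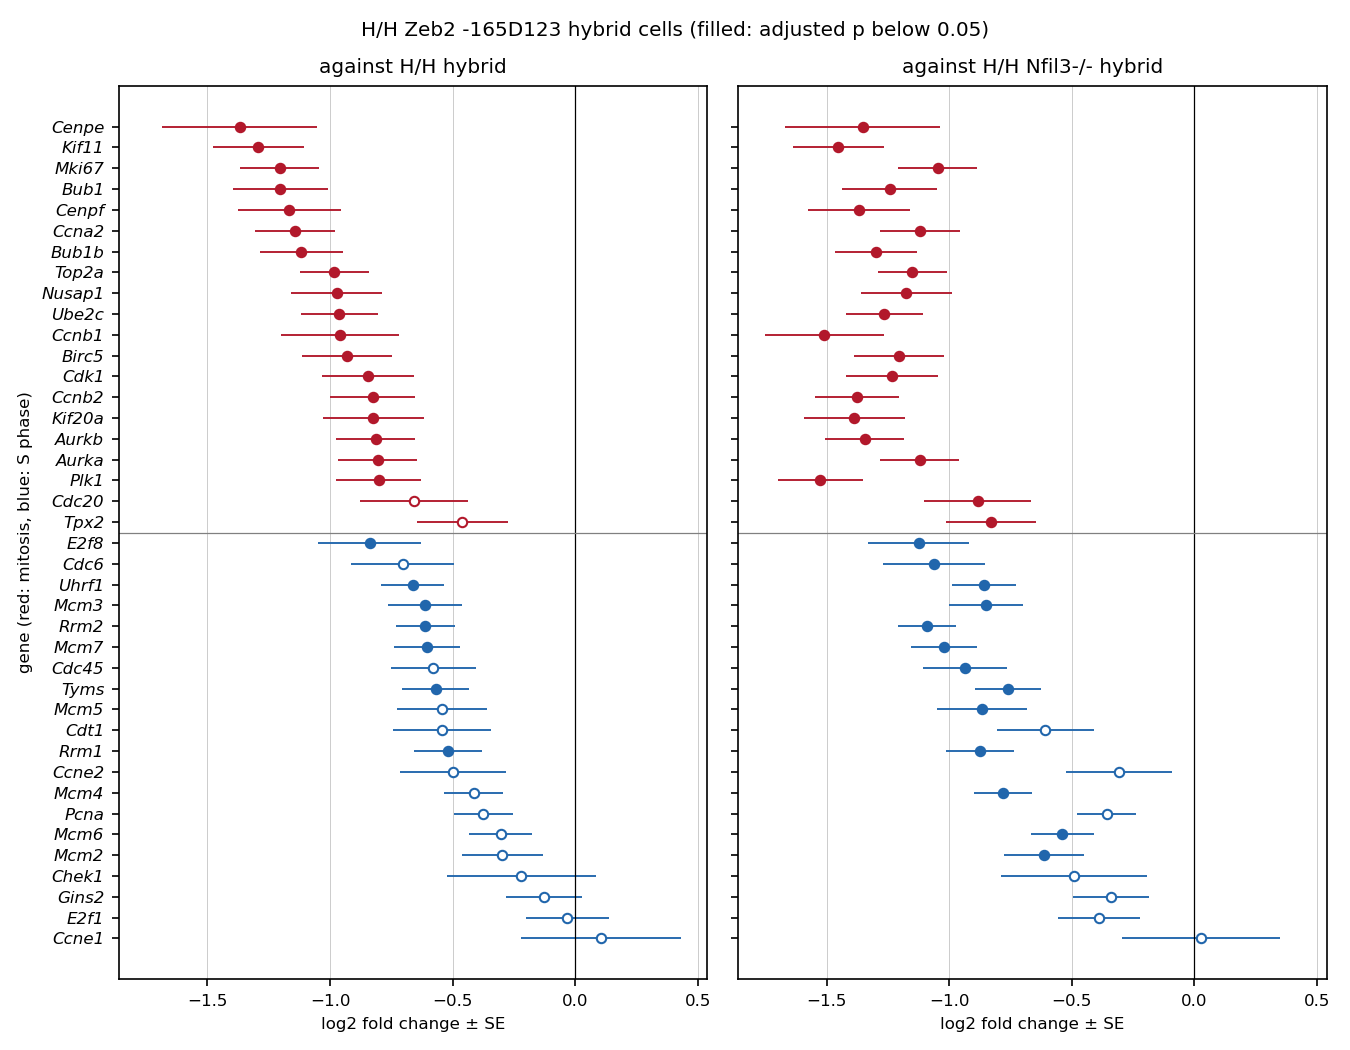
Log2 fold change ± SE of the 40 genes in Zeb2 -165D123 hybrid cells against H/H hybrid cells (left) and against Nfil3-/- hybrid cells (right), with mitosis genes in red, S phase genes in blue, and filled points for an edgeR adjusted p below 0.05. Of the 40 genes 25 are filled on the left and 33 on the right, all below 0, and the mitosis medians are -0.96 and -1.25.

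Loss of Nfil3 was compared within hybrid cells and within cDC1. In hybrid cells 2 of the 40 genes rose and 0 fell against H/H hybrid cells, where 1.93% of all genes rose and 1.8% fell. This comparison shares its H/H hybrid control libraries with the Zeb2 comparison above. Xist was found in Nfil3-/- hybrid replicate 2 (4240 counts) and stood at 0 and 1 counts in the H/H hybrid libraries. Plk1 stood at 34.1 and 33.9 CPM in Nfil3-/- hybrid cells and at 21.7 and 19.5 CPM in H/H hybrid cells (log2 fold change 0.72 ± 0.168, edgeR adjusted p = 0.0237). Rrm2 stood at 116 and 127 CPM against 92.4 and 82.0 CPM (log2 fold change 0.48 ± 0.118, edgeR adjusted p = 0.032). The groups did not overlap in either gene, which is no separate support, as both were called on the same libraries. The medians were 0.25 over mitosis genes and 0.28 over S phase genes, with 17 and 18 of 20 values above 0, and the log2 fold changes of all 40 ran from -0.19 to 0.72. Neither call held in every setting, and the number called depended on single libraries. With a term for Xist 0 of the 40 were called, where 2.65% of all genes changed. DESeq2 called 6 of the 40, beside 873 of all genes. The 8 neutrophil markers summed to 35.4 and 63.0 CPM in Nfil3-/- hybrid cells and to 3.80 and 4.34 CPM in H/H hybrid cells, with Ly6g at 0 in the latter. The 10 B and plasma cell markers summed to 1545 and 902 CPM against 905 and 662 CPM. Within that list Ighm stood at 823 and 634 CPM against 487 and 384 CPM, and Igkc at 456 and 49.1 CPM against 146 and 15.9 CPM. Ms4a1 ran the other way, at 105 and 101 CPM against 139 and 142 CPM. So did Cd79b, at 4.95 and 6.84 CPM against 9.23 and 9.82 CPM. The 10 cDC1 markers summed to 4224 and 4519 CPM against 2540 and 2469 CPM. The part of these cells in the result was not tested.

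In cDC1 the loss of Nfil3 gave 0 calls among the 40 genes by edgeR and 0 by DESeq2, where 3.03% of all genes changed. All 20 S phase genes had values above 0 (log2 fold changes from 0.05 to 0.44, median 0.23), and 6 of them had an unadjusted p below 0.05. The mitosis genes had a median of 0.10, and 1 had an unadjusted p below 0.05. Together these are 7 of the 40 genes, where 15.7% of all genes had such a p. Xist was found in Nfil3-/- cDC1 replicate 2 (3318 counts) and stood at 0 in both H/H cDC1 libraries. With a term for Xist 0 of the 40 were called, where 2.15% of all genes changed. The part of sex in the S phase values was not tested. The neutrophil markers summed to 20.5 and 17.4 CPM in Nfil3-/- cDC1 and to 0.461 and 0.313 CPM in H/H cDC1. An interaction test of the loss of Nfil3, hybrid cells against cDC1, gave 0 calls among the 40 by edgeR and 0 by DESeq2 (0.00689% of all genes), and 1 mitosis gene had an unadjusted p below 0.05, against 3.52% of all genes. Between Nfil3-/- hybrid cells and Nfil3-/- cDC1 1 of the 40 genes differed, where 1.26% of all genes were lower in hybrid cells and 4.02% higher. Ccne2, a cyclin that opens S phase, was lower there (log2 fold change -0.80, edgeR adjusted p = 0.0322).

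Hybrid cells of H/H mice were compared with cDC1 of the same genotype in both experiments. In experiment 2, 4 of the 40 genes were lower in hybrid cells and 0 were higher, where 5.25% of all genes were lower and 7.24% higher. Ube2c stood at 33.6 and 30.2 CPM in hybrid cells against 55.2 and 44.0 CPM in cDC1 (log2 fold change -0.64 ± 0.151, edgeR adjusted p = 0.0113). Ccnb2 stood at 37.9 and 24.0 CPM against 49.8 and 47.4 CPM (log2 fold change -0.65 ± 0.166, edgeR adjusted p = 0.0173). The S phase genes Rrm2 (log2 fold change -0.40, edgeR adjusted p = 0.0331) and Mcm6 (-0.42, edgeR adjusted p = 0.0402) were lower as well. The groups did not overlap in Ube2c, Ccnb2, Rrm2 or Mcm6, which is no separate support, as these genes were called on the same libraries. The 12 monocyte and macrophage markers summed to 1044 and 945 CPM in hybrid cells and 387 and 464 CPM in cDC1, and the 9 erythroid markers to 112 and 30.6 CPM against 15.9 and 21.6 CPM. Their part in the result was not tested. Mki67 at 0.06 and Mcm5 at -0.21 did not pass, nor did Cdk1 (-0.44), Birc5 (-0.40), Chek1 (-0.59) and Ccne1 (-0.57).

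When 1 library was left out in experiment 2, fewer of the 40, and fewer of all genes, passed than with all libraries. In experiment 1 the same comparison gave 0 calls by edgeR and 1 by DESeq2, where 7.85% of all genes changed. There 1 mitosis gene and 7 S phase genes had an unadjusted p below 0.05, 8 of the 40, where 20.5% of all genes had such a p. With a term for Xist 2 of the 40 were lower, where 10.4% of all genes changed. The medians were -0.23 (mitosis) and -0.20 (S phase) in experiment 2 and -0.12 and -0.22 in experiment 1. With both experiments in 1 fit 7 of the 40 were lower, 1 of mitosis and 6 of S phase, where 21.2% of all genes changed, or 3507 of 16527. Among genes outside the 40, Hells, a chromatin remodeller of dividing cells, was lower in hybrid cells of experiment 2 (log2 fold change -1.21), and the inhibitor Cdkn1a, which encodes p21, was higher (0.83).

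Against cDC2 of H/H mice, hybrid cells differed in 7 of the 40 genes, 6 lower and 1 higher, where 12.5% of all genes were lower and 12.9% higher. E2f1, the S phase transcription factor, was the gene that was higher, at 18.8 and 21.4 CPM in hybrid cells and 9.63 and 13.2 CPM in cDC2 (log2 fold change 0.82 ± 0.160, edgeR adjusted p = 0.00144). Kif11 was lower, at 20.4 and 19.8 CPM against 30.1 and 35.1 CPM (log2 fold change -0.70 ± 0.174, edgeR adjusted p = 0.00796). Cenpf was lower, at 14.7 and 14.1 CPM against 19.9 and 24.9 CPM (log2 fold change -0.64 ± 0.147, edgeR adjusted p = 0.00448). Uhrf1 was lower, at 60.1 and 69.0 CPM against 84.5 and 93.4 CPM (log2 fold change -0.46 ± 0.112, edgeR adjusted p = 0.00657). The groups did not overlap in E2f1, Kif11, Cenpf or Uhrf1, which is no separate support, as these genes were called on the same libraries. E2f8 (-0.66), Cenpe (-0.54) and Mcm7 (-0.38) were lower too, while Mki67 (-0.52), Rrm2 (-0.66), Nusap1 (-0.54), Mcm4 (-0.36) and Mcm5 (-0.14) did not pass.

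The medians of this comparison were -0.25 (mitosis) and -0.22 (S phase), against -0.03 over all genes. Without H/H cDC2 replicate 2 the medians were -0.05 (mitosis) and -0.09 (S phase). The number of calls depended on single libraries, among the 40 and over all genes. With a term for Xist, 12 of the 40 were lower and 1 higher, where 29.1% of all genes changed. The 7 NK cell markers summed to 10.6 and 12.7 CPM in hybrid cells and 82.4 and 117 CPM in cDC2, and the 8 T cell markers to 11.1 and 11.5 CPM against 33.2 and 33.6 CPM. Their part in the result was not tested. Some genes outside the 40 had larger changes. Ccnd1, the D-type cyclin that carries growth signals to the cycle, was lower in hybrid cells (log2 fold change -1.74), as was E2f2 (-1.18), an activator of the E2F family. The inhibitors Cdkn2b (-2.63), Cdkn2d (-1.32), Cdkn2c (-1.08) and Cdkn1b (-0.67) were lower, and 0 inhibitors were higher.

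In H/+ mice 1 of the 40 genes differed between hybrid cells and cDC2, where 8.71% of all genes were lower and 10.3% higher. Uhrf1 was lower in hybrid cells, at 71.9 and 72.1 CPM against 103 and 87.1 CPM (log2 fold change -0.40, edgeR adjusted p = 0.0197). With a term for Xist 1 of the 40 was lower and 3 were higher, where 22.5% of all genes changed. Between H/+ hybrid cells and H/+ cDC1, 0 of the 40 differed by edgeR and by DESeq2 where 16.5% of all genes changed. At an unadjusted p below 0.05 the count was 0, against 27.8% of all genes. The log2 fold changes of the 40 ran there from -0.25 to 0.62.

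In WT mice cDC1 were compared with cDC2. Of the 40 genes 10 were higher in WT cDC1 than in WT cDC2 and 0 were lower, where 20.5% of all genes were higher and 23.4% lower. The 10 were 7 S phase genes and 3 mitosis genes, with medians of 0.26 and 0.09 over the 20 genes of each list and of -0.07 over all genes. Ccne2 stood at 16.1 and 14.2 CPM in cDC1 and 9.45 and 7.79 CPM in cDC2 (log2 fold change 0.82 ± 0.168, edgeR adjusted p = 0.00102). Gins2, a subunit of the active helicase, stood at 26.9 and 32.0 CPM against 18.0 and 17.9 CPM (log2 fold change 0.72 ± 0.152, edgeR adjusted p = 0.00131). Ccne2 overlaps Ints8 and Gins2 overlaps Gse1 in the annotation. Cdc45, at 21.4 and 26.7 CPM against 13.6 and 14.4 CPM, was higher with a log2 fold change of 0.78 ± 0.170 (edgeR adjusted p = 0.00163).

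Of the helicase subunits Mcm6 (0.54), Mcm5 (0.46) and Mcm2 (0.38) were higher in cDC1, and so was the loader Cdc6 (0.56). Mcm5 stood at 146 and 160 CPM in cDC1 and 108 and 115 CPM in cDC2. The mitosis genes that were higher were Cdk1, Cdc20 and Aurkb. Cdk1 stood at 38.8 and 48.5 CPM against 23.4 and 26.6 CPM (log2 fold change 0.81 ± 0.188, edgeR adjusted p = 0.0029). Mki67 did not pass, at 33.0 and 35.4 CPM in cDC1 against 38.6 and 38.7 CPM in cDC2 (log2 fold change -0.18, edgeR adjusted p = 0.472). Ccnb1 (0.49), Ube2c (0.48), E2f1 (0.35) and E2f8 (0.35) did not pass either. Without WT cDC2 replicate 1 the number of calls was 4, and without WT cDC1 replicate 2 it was 6 higher and 2 lower. The 7 NK cell markers summed to 4.91 and 4.81 CPM in cDC1 and 108 and 101 CPM in cDC2, the 8 T cell markers to 14.6 and 19.2 CPM against 35.0 and 48.8 CPM, and the 12 monocyte and macrophage markers to 466 and 407 CPM against 1429 and 1372 CPM. Their part in the result was not tested.

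Of 31 genes of cycle control 5 were higher in WT cDC1 and 10 lower, beside the 20.5% and 23.4% of all genes given above. Ccnd2 stood at 15.4 ± 3.66 CPM in cDC1 and 129 ± 38.0 CPM in cDC2, and Ccnd1 at 73.9 ± 1.97 and 272 ± 12.7 CPM (SD, n = 2; log2 fold changes -3.07 and -1.88). E2f2 was lower (-2.23), and Mycl, the MYC relative of dendritic cells, was higher (2.27). Of 15 inhibitors 9 were lower in cDC1 and 2 higher, with Cdkn1a (-1.10), Btg1 (-0.97) and Btg2 (-0.59) lower and Trp53 (0.45) higher. Of the 62 further S phase genes 10 were higher and 5 lower, led by Hells (1.88), and of the 64 further mitosis genes 6 were higher and 4 lower, with Cks1b (1.23) and Plk4 (1.06) higher and Espl1 (-1.43) lower.

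**Figure D4:**
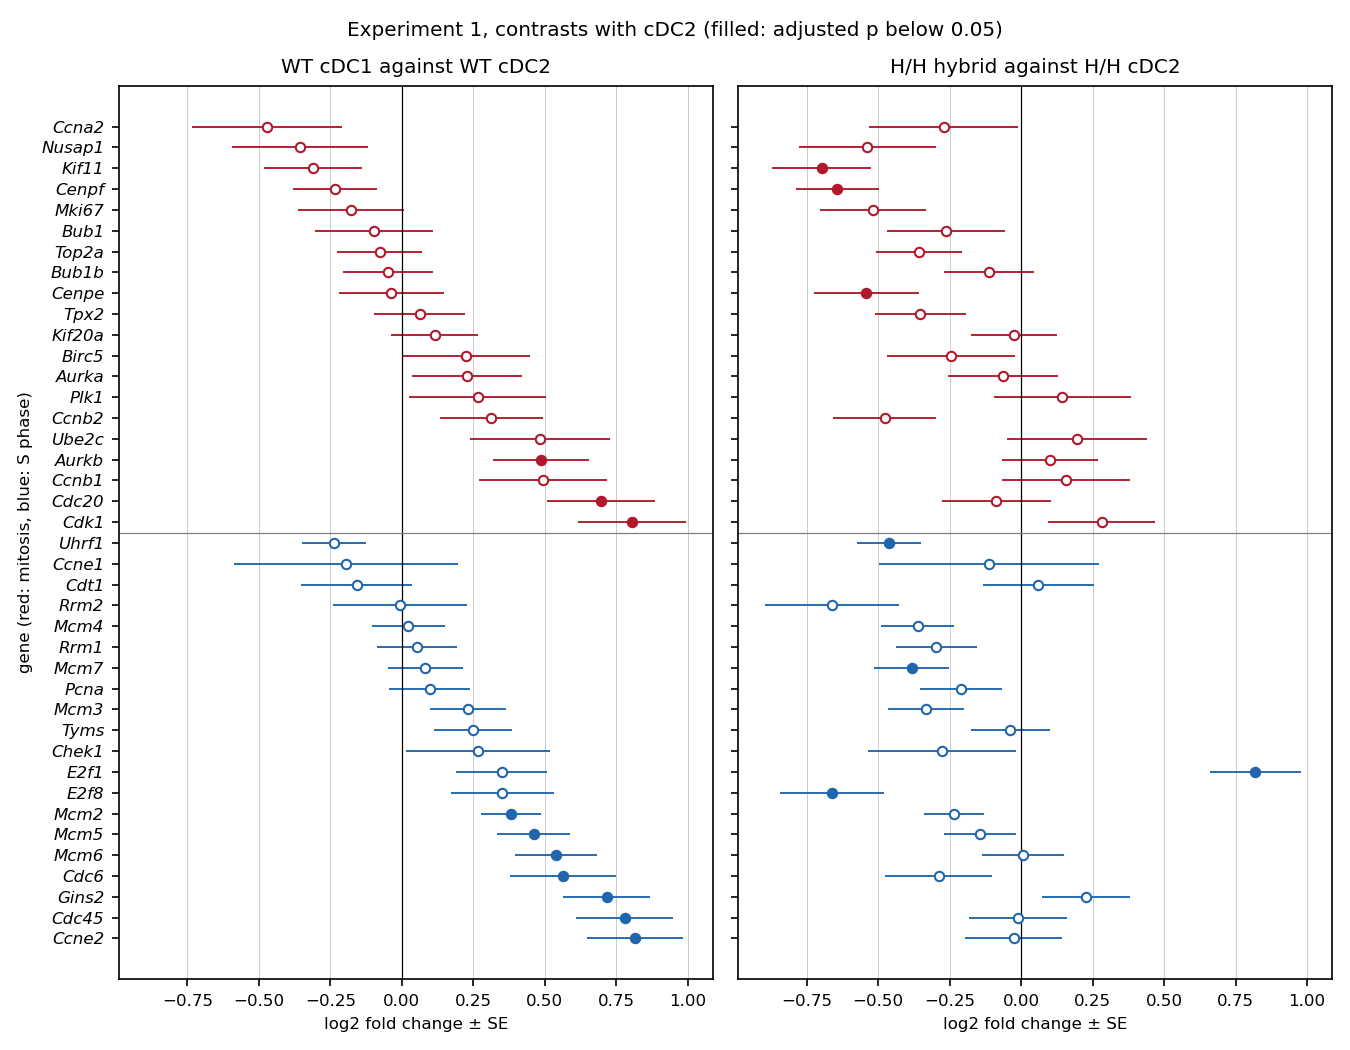
Log2 fold change ± SE of the 40 genes in experiment 1 for WT cDC1 against WT cDC2 (left) and for H/H hybrid cells against H/H cDC2 (right), with mitosis genes in red, S phase genes in blue, and filled points for an edgeR adjusted p below 0.05. On the left 10 genes are filled, all above 0, and on the right 6 are filled below 0 and E2f1 above 0.

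The Irf8 enhancer allele by itself gave no call among the 40 genes within a cell type. H/+ cDC1 against WT cDC1 gave 0 by edgeR and by DESeq2, where 1.47% of all genes changed, and 2 mitosis genes and 1 S phase gene had an unadjusted p below 0.05, against 14.8% of all genes. H/H cDC1 against WT cDC1 gave 0 by edgeR in experiment 1, where 4.17% of all genes changed, and 0 in experiment 2, where 6.32% changed. DESeq2 called 1 S phase gene lower in each experiment, and 2 S phase genes and 0 mitosis genes had an unadjusted p below 0.05 in each, against 15.2% and 16.6% of all genes. In cDC2, H/+ against WT gave 0 by edgeR and by DESeq2, where 0.0249% of all genes changed, and 4 of the 40 had an unadjusted p below 0.05, 3 of mitosis and 1 of S phase, against 5.17% of all genes.

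H/H cDC2 against WT cDC2 gave 0 by edgeR and by DESeq2, where 0.0811% of all genes changed. All 20 mitosis genes had values above 0 there (log2 fold changes from 0.03 to 0.54, median 0.22), and 3 mitosis genes and 1 S phase gene had an unadjusted p below 0.05, against 3.51% of all genes. H/H against H/+ hybrid cells gave 0 by edgeR and by DESeq2, where 0.131% of all genes changed, with medians of -0.20 (mitosis) and -0.15 (S phase) and 3 mitosis genes at an unadjusted p below 0.05, against 6.73% of all genes. An interaction test of the H/H allele, cDC1 against cDC2, gave 0 by edgeR and by DESeq2, where 1.9% of all genes were called, and 1 S phase gene had an unadjusted p below 0.05, against 10.2% of all genes.

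A difference that the groups do not define ran through experiment 1. Replicate 1 of all 8 groups held Y-linked transcripts (4027 to 7287 counts) and replicate 2 held Xist (3674 to 7461 counts), so the sex of the mice and the replicate number cannot be told apart, and the term for Xist used above is the replicate number in this experiment. Over the 8 groups 6 of the 40 genes were higher in replicate 2 and 0 were lower, where 1.48% of all genes were higher and 1.78% lower. This comparison was added after the data were seen. The mitosis genes Ube2c (log2 fold change 0.36, edgeR adjusted p = 0.00761), Plk1 (0.34, edgeR adjusted p = 0.0159), Cdk1, Cdc20 and Bub1 were higher, with a median of 0.21 over the 20. Mcm6 was the S phase gene that was higher (0.21, edgeR adjusted p = 0.0234), with a median of 0.13 over the 20.

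The groups did not share this order evenly. The mitosis genes were higher in replicate 2 in 20 of 20 genes in WT cDC1, WT cDC2, H/H cDC1 and H/H cDC2 (median log2 ratios from 0.241 to 0.401), in 12 of 20 in H/+ hybrid cells, and in 3 of 20 in H/+ cDC2 (median -0.200). Ube2c stood at 27.8 and 41.7 CPM in replicates 1 and 2 of H/H cDC1 and at 29.1 and 29.0 CPM in H/+ cDC2. Leaving out 1 group at a time left between 1 gene called (without H/H cDC1) and 13 (without H/+ cDC2).

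**Figure D5:**
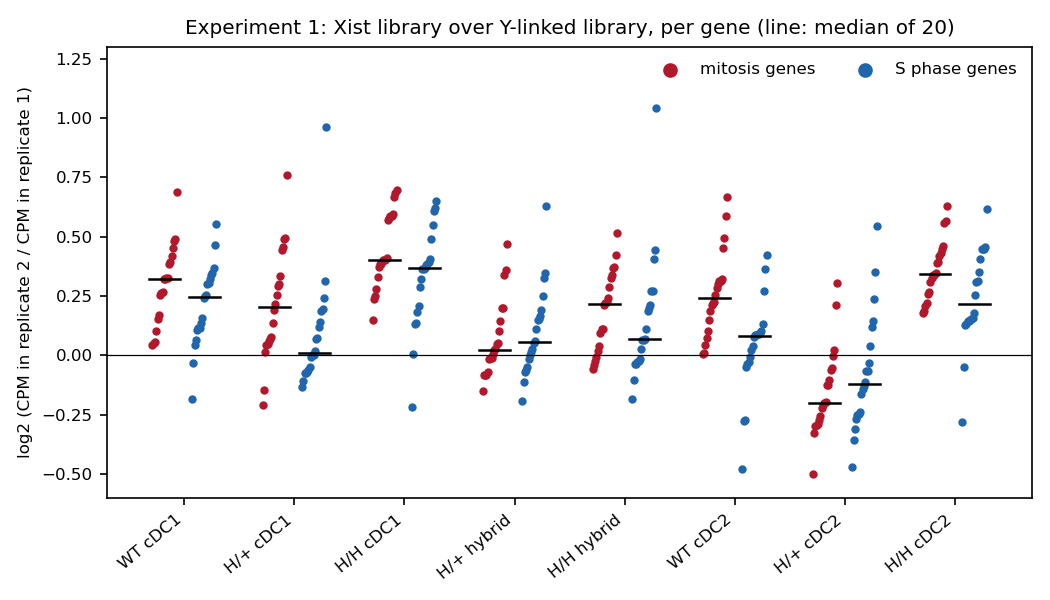
Log2 ratio of CPM in replicate 2 (with Xist) over replicate 1 (with Y-linked transcripts) for each of the 20 mitosis genes (red) and 20 S phase genes (blue) in the 8 groups of experiment 1, with the median of each list as a black line. The mitosis medians lie above 0 in 7 groups and at -0.200 in H/+ cDC2.

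The members varied together across libraries, more closely in experiment 2. Over the 16 libraries of experiment 1 the median Pearson correlation of log2 CPM was 0.53 between pairs of mitosis genes. It was 0.41 between pairs of S phase genes and 0.36 between the lists. Values were above 0 in 166 of 190, 149 of 190 and 317 of 400 pairs. In experiment 2 the median Pearson correlation of log2 CPM over 12 libraries was 0.91 between pairs of mitosis genes, 0.80 between pairs of S phase genes and 0.81 between the lists. Without the 2 Zeb2 -165D123 libraries these medians were 0.65, 0.59 and 0.41. Of the deviations of replicates from their group means, the medians were 0.76, 0.50 and 0.64 over the 16 libraries of experiment 1, and 0.61, 0.40 and 0.02 over the 12 of experiment 2. These are descriptions over libraries that share depth and preparation, and replicate deviations come in pairs of opposite sign.

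Groups present in both experiments had near levels in most members. The median ratio of group means, experiment 2 over experiment 1, was 0.968 for WT cDC1, and for the cDC1 and hybrid cells of H/H mice it was 0.924 and 0.889. A few members differed widely between the tables. Ccna2 stood at 4.98 CPM in WT cDC1 of experiment 1 and at 24.0 CPM in experiment 2, a ratio of 4.81, and its ratios in H/H cDC1 and H/H hybrid cells were 3.82 and 2.90. Mki67 stood at 34.2 and 98.8 CPM in WT cDC1 (ratio 2.89), and at 36.7 and 87.4 CPM in H/H cDC1 (ratio 2.39). Because the tables were made separately, these levels were set side by side and not tested, and the comparisons above were made within 1 experiment.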

How the data were processed

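RNA of sorted splenic dendritic cells was sequenced (28 libraries, 14 groups). The deposited values are expected counts, estimated by the authors per Ensembl gene in 1 table per experiment, with 10.8% and 10.2% of values not whole, and they were rounded here. The submitters' processing notes name bcl2fastq, DRAGEN and edgeR; versions, genome build and annotation are not given in the sources used here. Per the labels, 10 ng of RNA entered the SMARTer Ultra Low kit, followed by 12-15 PCR cycles. Of 55774 lines 287 repeated a gene ID with the same counts and were dropped. Coordinates are GRCm38 (GENCODE M21, which holds 99.5% of the IDs).

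Each experiment was fitted whole with edgeR 4.0.16 in R 4.3.3 (filterByExpr with a count minimum of 10, TMM, 1 coefficient per group, robust quasi-likelihood F test), on 16036 and 14504 genes. Adjusted p-values (Benjamini-Hochberg) cover all of these per contrast, with a threshold of 0.05, and SE is the log2 fold change over the square root of F. CPM use TMM-scaled totals, and log2 CPM a prior count of 2. The code was tested on simulated counts. With 2 libraries a group, the spread was estimated over all groups of an experiment and with information shared across genes. The p-values measure the spread between libraries of a group only.

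The members, the gene lists and the tests were chosen with earlier results of these data known. Mki67 and Mcm5 were always named in comparisons with 3 or more calls, with up to 6 called genes of smallest p and up to 2 uncalled genes of largest change per list, and up to 4 called genes of each wider list. Alternatives were DESeq2 1.42.0, RLE scaling, no filter, only the groups compared, a replicate block, a term for Xist, and leaving out each library. A gene that the naming rule selects is not reported here.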

Additional observations from a re-analysis of the deposited data

How the results depend on the processing

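Counts of the 40 genes called are given here where an alternative moved them by more than 1.5 times. With no filter on low counts, H/+ cDC2 against WT cDC2 gave 1 call, H/+ hybrid cells against H/+ cDC2 gave 3, of which 2 were higher, H/H hybrid cells against H/H cDC1 gave 1 in experiment 1 and 2 in experiment 2, H/H hybrid cells against H/H cDC2 gave 14, and Nfil3-/- hybrid cells against H/H hybrid cells gave 7. DESeq2 gave 1 call for H/H cDC1 against WT cDC1 in each experiment, 2 for H/+ hybrid cells against H/+ cDC2, 1 and 11 for H/H hybrid cells of experiment 1 against cDC1 and cDC2, 6 for Nfil3-/- against H/H hybrid cells, and 2 for Nfil3-/- hybrid cells against Nfil3-/- cDC1. Only the groups compared in the fit gave 1 higher call for H/+ hybrid cells against H/+ cDC2, 6 for Nfil3-/- against H/H hybrid cells and 0 for Nfil3-/- hybrid cells against Nfil3-/- cDC1. Both experiments in 1 fit gave 1 call for H/H cDC1 against WT cDC1 and 7 for H/H hybrid cells against H/H cDC1. The term for Xist gave 4 calls for H/+ hybrid cells against H/+ cDC2, of which 3 were higher, 2 and 13 for H/H hybrid cells of experiment 1 against cDC1 and cDC2, and 0 for Nfil3-/- against H/H hybrid cells. Replicate 2 against replicate 1 of experiment 1 gave 11 with no filter. With no filter, 36466 genes of experiment 1 and 34899 of experiment 2 were adjusted for. Over all genes, in the orders given above, no filter called 84, 3249, 1596, 1892, 4122 and 1052. DESeq2 called 925, 973, 3063, 1523, 4060, 873 and 864. Only the groups compared gave 2198 of 14629, 1953 of 13406 and 883 of 13148. Both experiments in 1 fit gave 1822 and 3507 of 16527. The term for Xist gave 3601, 1666 and 4665 of 16036, and 385 of 14504. No such count is given for replicate 2 against replicate 1. The cause of these changes was not tested.

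The labels do not say that the replicate numbers pair the samples. The deviations of same-numbered libraries correlated between -0.0402 and 0.294 over 28 pairs of groups in experiment 1, with 9 pairs over 0.1, and between -0.205 and 0.157 over 15 in experiment 2, with 1 over 0.1, so they were not treated as paired, although the numbers of experiment 1 follow Xist. A replicate block gave 4 calls for H/+ hybrid cells against H/+ cDC2, of which 3 were higher. It gave 2 and 13 for H/H hybrid cells of experiment 1 against cDC1 and cDC2, and 1 for Nfil3-/- against H/H hybrid cells. The Zeb2 -165D123 comparisons with H/H and Nfil3-/- hybrid cells gave 24 and 33. WT cDC1 against WT cDC2 gave 12, and H/H hybrid cells against H/H cDC1 in experiment 2 gave 3. Over all genes the block called, in the same order, 3601, 1666 and 4665 of 16036, then 469, 501 and 1407 of 14504. For the last 2 comparisons it called 7528 of 16036 and 1610 of 14504.

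Leaving out 1 library gave 4 to 11 calls for WT cDC1 against WT cDC2, 0 to 1 for H/+ hybrid cells against H/+ cDC2, 0 to 4 and 1 to 9 for H/H hybrid cells of experiment 1 against cDC1 and cDC2, 0 to 3 for H/H hybrid cells against H/H cDC1 in experiment 2, 0 to 3 for Nfil3-/- against H/H hybrid cells, 0 to 1 for Nfil3-/- hybrid cells against Nfil3-/- cDC1, and 6 to 20 and 27 to 30 for the 2 Zeb2 -165D123 comparisons. Leaving out 1 group gave 1 to 13 for replicate 2 against replicate 1. It gave 0 in each of the other comparisons. Each of 188 gene results was refitted under the alternatives. Calls of single genes did not hold in every fit, and 4 of the fits changed sign. These 4 were of Mcm5 and Mki67, in H/H hybrid cells against H/H cDC1 of experiment 2, neither called in the main fit. Mcm5 was 0.037 and Mki67 -0.17 without H/H cDC1 replicate 2. Mki67 was -0.12 without H/H hybrid replicate 1 and -0.049 with both experiments in 1 fit. Leaving out 1 library gave a range from -0.42 to 0.037 for Mcm5 and from -0.17 to 0.34 for Mki67. Some low-count members had a larger SE, and the part of depth in this was not tested. In Zeb2 -165D123 against H/H hybrid cells the SE of the log2 fold change was 0.326 for Ccne1 and 0.305 for Chek1, against 0.161 for Mki67, though it was also 0.317 for the more abundant Cenpe.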
